A study of Mus musculus with 12 samples.

Results

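The secreted Wnt antagonists followed here were 10 genes: the secreted frizzled-related genes Sfrp1, Sfrp2, Sfrp4, Sfrp5 and Frzb, the Wnt inhibitory factor gene Wif1, the Dickkopf genes Dkk1, Dkk2 and Dkk3, and Notum. They were 10 of the 49315 genes in the count table, and all 10 had reads. The set was chosen by name and was picked from the measured difference between genotypes, since Sfrp5 was known to be lower in one of them. The members' values in that comparison are therefore given as a description, without p-values. The count of members past the threshold is given only beside the share over all genes, and nothing is read from it. Dorsal root ganglia (DRG) of 12 mice, each 10 months old, were profiled by bulk RNA-seq, with 8 ganglia pooled per mouse. The 6 Nf2 mice were Postn-Cre(+) and Nf2 flox/flox, and the 6 double knockout (DKO) mice were in addition Fak1 flox/flox. By their labels, each genotype had 3 males and 3 females. Every mouse, the comparison group included, therefore carried the Cre and the floxed Nf2 alleles, and no wild-type DRG was analysed here. Fak1 is Ptk2, the gene of focal adhesion kinase, and Nf2 encodes merlin. The authors describe Postn-Cre deletion in Schwann cells and their precursors. Whether other cells of a ganglion were also affected was not tested here. Differences below are DKO minus Nf2 unless another pair is named.

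Wnt proteins are lipid-modified ligands that bind Frizzled receptors, and in the canonical branch they also engage the co-receptors Lrp5 and Lrp6 to stabilize beta-catenin. Secreted frizzled-related proteins and Wif1 bind Wnt ligands outside the cell, the first through a cysteine-rich domain like that of the Frizzled receptors. Dkk1 and Dkk2 bind Lrp5 and Lrp6, Dkk3 is a divergent Dickkopf protein, and Notum is an extracellular enzyme that removes the lipid from Wnt proteins. Sfrp5 is best known as a factor secreted by adipocytes.

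Sfrp5 (ENSMUSG00000018822) lies on the minus strand of chromosome 19 at chr19:42197971-42202252 in GRCm38. In GENCODE M21 it has 1 transcript of 3 exons and 1900 bases, with a coding length of 942 bases for 314 amino acids, and no other annotated gene overlaps it. In a pairwise alignment of the translated coding sequences, Sfrp5 was identical to Sfrp1 at 58.1% of aligned residues and to Sfrp2 at 46.6%, whereas Sfrp4 and Frzb were identical to each other at 56.9% and to Sfrp5 at 29.0% and 32.4%. The coding stretch shown next was the most alike ungapped stretch of its length among Sfrp5, Sfrp1 and Sfrp2, and is shown for that reason. It is written 5′ to 3′ on the coding strand, and capitals mark the 56 of 75 bases (74.7%) that were the same in all 3 genes. It covers coding bases 202 to 276 of Sfrp5, 226 to 300 of Sfrp1 and 172 to 246 of Sfrp2.
Sfrp5: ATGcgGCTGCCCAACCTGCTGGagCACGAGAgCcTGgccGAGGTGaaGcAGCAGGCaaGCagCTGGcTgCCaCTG
Sfrp1: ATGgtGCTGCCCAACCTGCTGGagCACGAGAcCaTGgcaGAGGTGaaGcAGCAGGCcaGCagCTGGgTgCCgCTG
Sfrp2: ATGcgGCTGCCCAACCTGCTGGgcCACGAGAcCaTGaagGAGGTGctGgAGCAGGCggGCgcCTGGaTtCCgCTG
The longest exact run that Sfrp5 shared with another member's transcript was 26 bases, with Sfrp1. Whether reads of these relatives were confused in mapping was not tested.

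The RefSeq promoter table for GRCm38.p6 held 6 of the 10 genes: Sfrp2, Sfrp5, Frzb, Wif1, Dkk1 and Dkk2. The 250 bases before the Sfrp5 start are shown because Sfrp5 is the member whose genotypes did not overlap. They lie at chr19:42202253-42202502 and are written 5′ to 3′ on the minus strand, the strand of the gene, with no capitals because no searched motif matched.
Sfrp5 upstream: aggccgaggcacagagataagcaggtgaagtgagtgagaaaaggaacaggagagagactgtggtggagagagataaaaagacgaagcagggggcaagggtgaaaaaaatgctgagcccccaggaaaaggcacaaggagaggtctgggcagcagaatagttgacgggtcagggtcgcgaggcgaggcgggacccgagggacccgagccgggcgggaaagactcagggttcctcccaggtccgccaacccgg
This stretch had 59.6% G and C and 13 CpG dinucleotides. Windows of 300 bases, 250 before and 50 after the start, were searched on both strands for the TCF/LEF letters CTTTGAT and CTTTGAA and for the TEAD letters GGAATG, where CTTTGAT and CTTTGAA differ in their last letter, so that 1 position cannot match both. Among 32851 promoter windows in the table, 3.73% held CTTTGAT, 5.14% held CTTTGAA, 8.65% held either and 14.7% held GGAATG. In the windows of the 6 members the single match was CTTTGAA in Dkk1, from base -117 to base -111 relative to its start. These are letter matches, not measured binding.

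The libraries held 21129191 to 41250329 counts over genes, with a median of 26506472, and the mitochondrial share was 1.99% to 5.60%, highest in DKO mouse 887. CPM is a gene's count scaled by the library total. Ptk2 was at 65.8 to 75.5 CPM in Nf2 DRG and at 46.5 to 76.0 CPM in DKO DRG, so the ranges overlapped. Nf2 was at 109 to 143 CPM and at 99.2 to 132 CPM, respectively. These counts are over whole genes and do not show the loss of a deleted exon. Ganglia also hold cells other than the Schwann cells and precursors in which the authors describe deletion. The 2 genes therefore neither bear out nor contradict the labels. Nf2 mouse 702, labelled male, had 496 CPM of Xist and 0.525 CPM of Ddx3y, as in the mice labelled female. Results by sex include this mouse, and values without it are given where stated. The labelled tissue fitted its markers, with 9 sensory neuron markers summing to 6035 to 8368 CPM and 7 myelinating Schwann cell markers to 6730 to 10013 CPM in every library. Skeletal muscle markers were also present, at 13.2 to 935 CPM in Nf2 and 18.6 to 307 CPM in DKO DRG.

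To learn which antagonists DRG express, levels were compared per length, as CPM per kilobase of exon. Sfrp5 was the highest of the 10 genes in each of the 12 mice, with a median of 126 and a range of 76.3 to 209 CPM per kilobase. It ranked 232 of 35498 genes with a length and reads by mean level, within the top 0.654%. Dkk3 came next at 51.0 (44.1 to 64.8) CPM per kilobase, and its range met neither that of Sfrp5 nor that of Frzb. Frzb, also called Sfrp3, had a median of 13.4 CPM per kilobase, and Sfrp1 a median of 10.0. These neighbours overlapped in range, with Frzb above Sfrp1 in 11 of 12 mice. Sfrp4 followed at 3.61 CPM per kilobase with a wide range of 1.60 to 9.34.

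**Figure D1:**
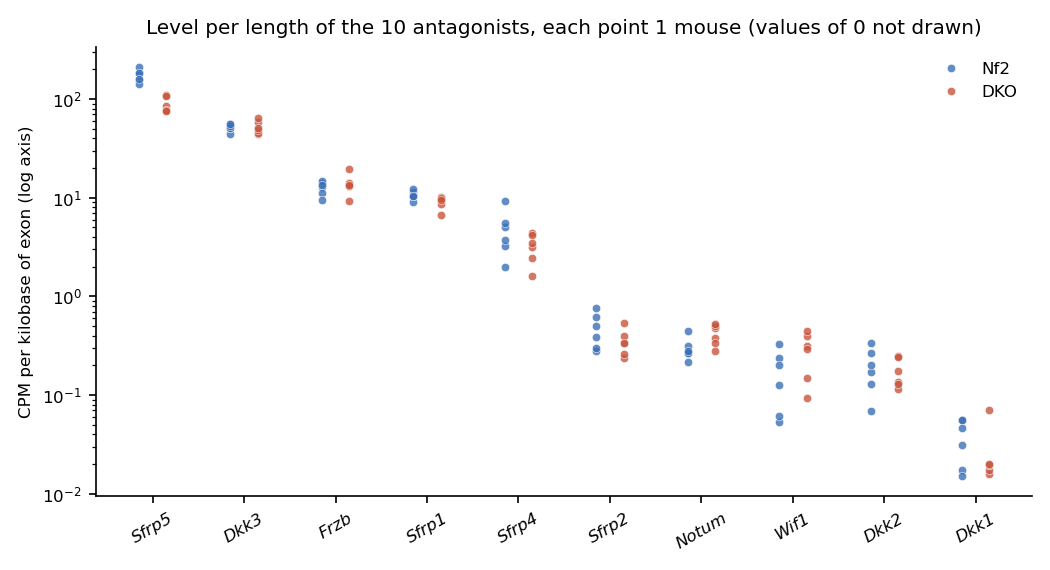
Level of each antagonist in CPM per kilobase of exon on a log axis, 1 point per mouse, with the 6 Nf2 mice in blue and the 6 DKO mice in red and the genes ordered by their median over 12 mice. Sfrp5 and Dkk3 sit above the other genes in every mouse, and the value of 0 for Dkk1 in 1 DKO mouse is not drawn.

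The other 5 genes were at low levels. Sfrp2 (median 0.365 CPM per kilobase), Notum (0.323), Wif1 (0.218) and Dkk2 (0.174) overlapped with their neighbours, and Wif1 was above Dkk2 in 6 of 12 mice. Dkk1 had 0 to 4 counts in each library. Its 0 counts in DKO mouse 915 allow up to 3 counts, or 0.116 CPM, an upper limit that covers counting error only. The order was the same when the longest transcript replaced all exons as the length. A filter on low counts kept 9 of the 10 genes, all but Dkk1, and the values of Sfrp2, Notum, Wif1 and Dkk2 rest on 3 to 44 counts per library.

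The question put to the genotypes was how deletion of Fak1 on the Nf2 background changed DRG transcripts. Sfrp5 was at 272 CPM in the lowest Nf2 mouse, with a median of 327 and a highest value of 398 CPM. In DKO mice the lowest value was 145 CPM, the median 156 and the highest 207 CPM. All 6 DKO values were below all 6 Nf2 values. The means were 329 ± 45.4 CPM (SD, n = 6) in Nf2 and 169 ± 28.7 CPM (SD, n = 6) in DKO DRG, a ratio of 0.514. The fitted log2 fold change from edgeR was -0.98 ± 0.12 (SE), and it lay between -1.05 and -0.92 over 19 fits, among them 12 that each left out 1 mouse. In bulk tissue, fewer cells of a type and less RNA per cell cannot be told apart.

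Within the labelled males, Sfrp5 averaged 350 CPM in Nf2 and 166 CPM in DKO mice, and within the labelled females it averaged 309 and 173 CPM. Because all 6 DKO values were below all 6 Nf2 values, the genotypes could not overlap within either sex, and nothing is read from that. The male values without mouse 702 were 349 and 166 CPM. Of the 9 members tested, 1 (Sfrp5) passed the threshold of an adjusted p of 0.05 in edgeR's quasi-likelihood test with Benjamini-Hochberg adjustment, where 0.940% of the 18295 genes tested did so. By range, 1 of the 9 did not overlap between genotypes, against 1.95% of all genes tested. Sfrp5 was known to differ when the genes were chosen, so nothing is read from these counts. The members' median log2 fold change was -0.18, with 6 below 0 and 3 above, beside 0.0047 over all genes tested.

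**Figure D2:**
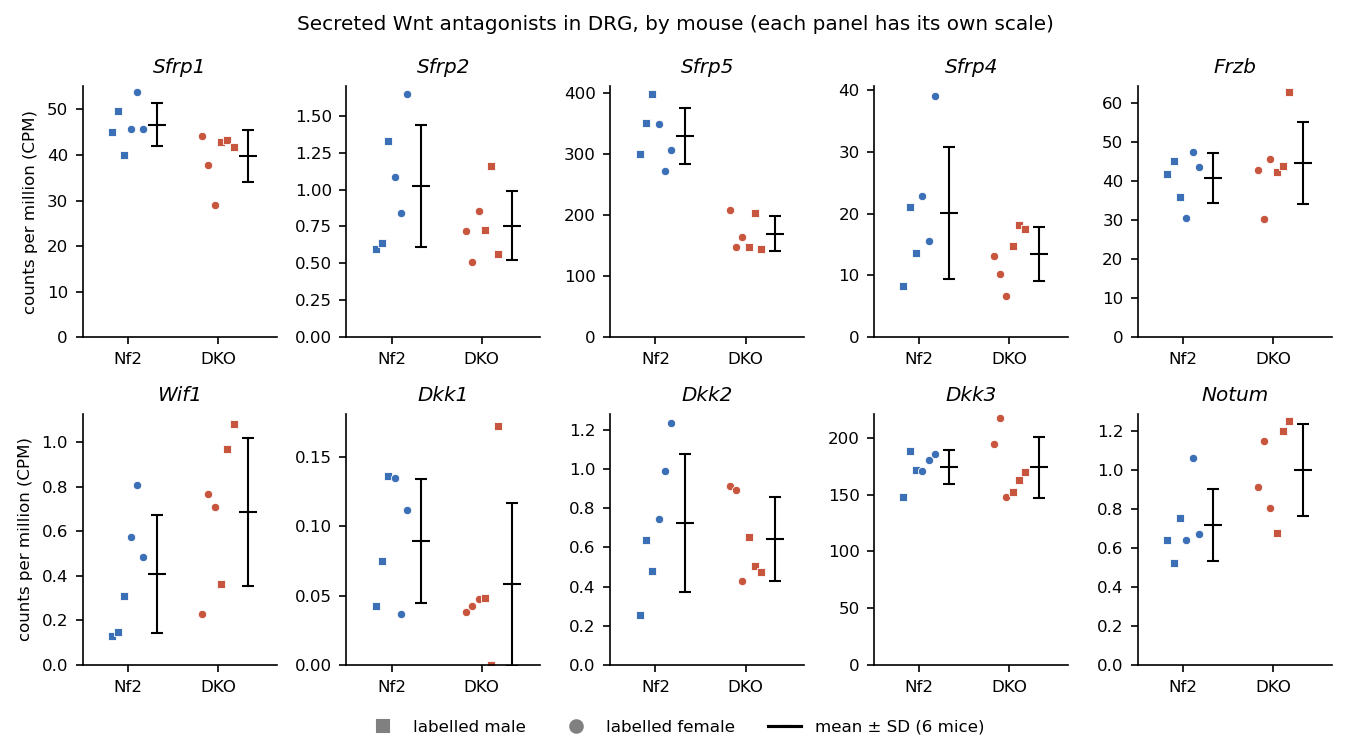
CPM of the 10 antagonists in each mouse, with Nf2 in blue and DKO in red, squares for labelled males and circles for labelled females, and bars for the mean ± SD of 6 mice. Each panel has its own scale starting at 0. Sfrp5 is the gene whose genotypes do not overlap.

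Sfrp1 (chr8:23411502-23449632, plus strand), the closest relative of Sfrp5 by sequence in the alignments above, was at 40.0 to 53.9 CPM in Nf2 mice (median 45.6) and at 29.1 to 44.2 CPM in DKO mice (median 42.3). All 6 DKO mice were below the Nf2 mean, and 2 were below every Nf2 mouse. The log2 fold change was -0.25 ± 0.10 (SE). The lowest DKO value belonged to mouse 887, which also had the highest mitochondrial share, and the log2 fold change was between -0.29 and -0.18 with any 1 mouse left out. Sfrp1 averaged 44.9 CPM in Nf2 and 42.7 CPM in DKO males, and 48.4 and 37.0 CPM in the females. Without mouse 702 the male means were 42.5 CPM in Nf2 and 42.7 CPM in DKO mice.

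Sfrp4 (chr13:19623104-19632994, plus strand), a frizzled-related protein of the other sequence branch, varied most among the well-expressed members, with 51.0% as its coefficient of variation over 12 mice. It was at 8.22 to 39.0 CPM in Nf2 mice (median 18.3) and at 6.67 to 18.2 CPM in DKO mice (median 13.9), so the genotypes overlapped. The log2 fold change was -0.60 ± 0.32 (SE), and it was -0.31 without Nf2 mouse 1049, the highest of the 12. Frzb (chr2:80411970-80447625, minus strand), its closest relative, was at 30.5 to 47.5 CPM (median 42.8) in Nf2 and at 30.2 to 62.8 CPM (median 43.4) in DKO mice, with a log2 fold change of 0.11 ± 0.15 (SE) that was -0.0086 without DKO mouse 917. Sfrp2 averaged 1.02 and 0.756 CPM, with a log2 fold change of -0.45 ± 0.28 (SE) that was -0.28 without mouse 1049. The Sfrp2 locus also holds the antisense gene Gm26771, and whether the counting used strand is not given in the sources used here.

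Dkk3 (chr7:112116017-112159057, minus strand) was nearly equal in the genotypes, at 174 ± 14.6 CPM (SD, n = 6) in Nf2 and 174 ± 26.9 CPM (SD, n = 6) in DKO DRG. Its log2 fold change was -0.020 ± 0.094 (SE) and took either sign as single mice were left out, between -0.094 and 0.0085, and its DKO range of 148 to 218 CPM held every Nf2 value. Dkk2 averaged 0.723 and 0.644 CPM, with a log2 fold change of -0.18 ± 0.33 (SE) that was 0.028 without Nf2 mouse 1049. Dkk1 had 1 to 4 counts in Nf2 and 0 to 4 in DKO libraries, and a difference was not detectable at this depth.

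Wif1 (chr10:121033960-121100650, plus strand) and Notum (chr11:120653788-120661175, minus strand) were the 2 low-level members with higher means in DKO DRG. Wif1 was at 0.128 to 0.807 CPM in Nf2 (median 0.397) and at 0.228 to 1.08 CPM in DKO mice (median 0.738), with a log2 fold change of 0.69 ± 0.46 (SE). Notum was at 0.525 to 1.06 CPM (median 0.658) and at 0.679 to 1.25 CPM (median 1.03), with a log2 fold change of 0.45 ± 0.22 (SE). For Notum 3 DKO mice were above every Nf2 mouse, and for Wif1 2 were. The Notum locus overlaps the antisense genes Notumos and Myadml2os, so the same limit on strand applies.

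Summed per length, the 10 genes came to 254 ± 23.1 CPM per kilobase (SD, n = 6) in Nf2 and 168 ± 17.6 (SD, n = 6) in DKO DRG. Sfrp5 made up 67.9% ± 4.08 (SD, n = 6) of the sum in Nf2 and 52.7% ± 4.64 (SD, n = 6) in DKO mice. Without Sfrp5 the sums were 81.2 ± 7.86 and 79.2 ± 7.81 CPM per kilobase, and their ranges, 70.0 to 90.2 and 67.7 to 86.5, overlapped. The difference in the sum therefore lay in Sfrp5, with Dkk3 as the next share in every mouse.

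**Figure D3:**
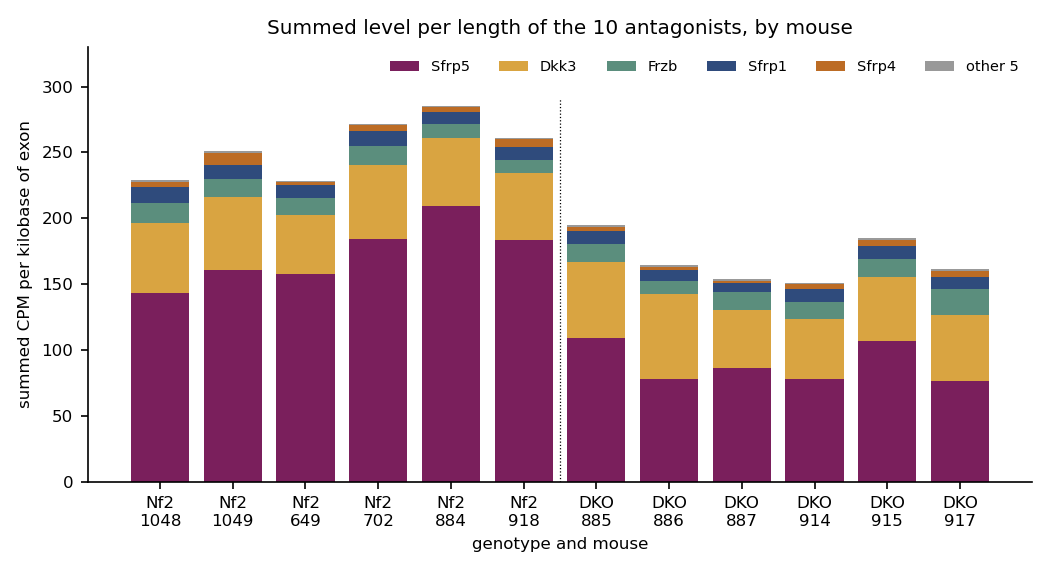
Level per length of the antagonists stacked by mouse, in CPM per kilobase of exon, with 6 Nf2 mice on the left and 6 DKO mice on the right of the dotted line. The bars reach 228 to 285 in Nf2 and 151 to 195 in DKO mice, and the Sfrp5 segment is the one that differs most.

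The contrast between labelled sexes did not choose the members and was tested. Of the 9 members 0 passed in edgeR's quasi-likelihood test with genotype in the fit, where 0.0164% of genes did, and 0 passed in DESeq2. At an unadjusted p under 0.05, which 2.91% of all genes tested reached, edgeR gave 1 member, Dkk2, whose log2 difference, male minus female, was -0.76 ± 0.28 (SE) with an adjusted p of 0.9999. Dkk2 was at 0.255 to 0.638 CPM in the Nf2 males and at 0.744 to 1.23 CPM in the Nf2 females, and the DKO sexes overlapped. Without mouse 702 the Dkk2 difference was -0.84 and its adjusted p 0.9997. Sfrp5 differed by 0.06 ± 0.12 (SE) between the sexes.

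Whether the genotype difference depended on labelled sex was tested as an interaction. Of the 9 members 0 passed in edgeR, where 0.0109% of genes did. DESeq2 called 0 of the 8 members it gave an adjusted p, and it gave none for Wif1. At an unadjusted p under 0.05 in edgeR, which 4.78% of all genes tested reached, there were 2, Sfrp4 and Wif1. Sfrp4 averaged 14.3 CPM in Nf2 and 16.8 CPM in DKO males, and 25.8 and 10.0 CPM in Nf2 and DKO females, an interaction of 1.54 ± 0.52 on the log2 scale (SE, edgeR adjusted p of 0.920). The female genotypes did not overlap and the male ones did, although the males did not overlap once mouse 702 was left out, with means of 10.9 and 16.8 CPM. Without mouse 702 the Sfrp4 interaction was 1.94 (edgeR adjusted p of 0.772).

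For Wif1 the corresponding means were 0.195 and 0.804 CPM in Nf2 and DKO males and 0.623 and 0.568 CPM in the females, an interaction of 2.05 ± 0.78 (SE, edgeR adjusted p of 0.920). The males did not overlap between genotypes and the females did. The Nf2 males rest on 3 to 9 counts each. Without mouse 702 the Wif1 interaction was 1.89 (edgeR adjusted p of 0.772). The Sfrp5 interaction was -0.29 ± 0.23 (SE), and without mouse 702 it was -0.29. Over 18 settings the lowest adjusted p of any member in either contrast was 0.435.

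**Figure D4:**
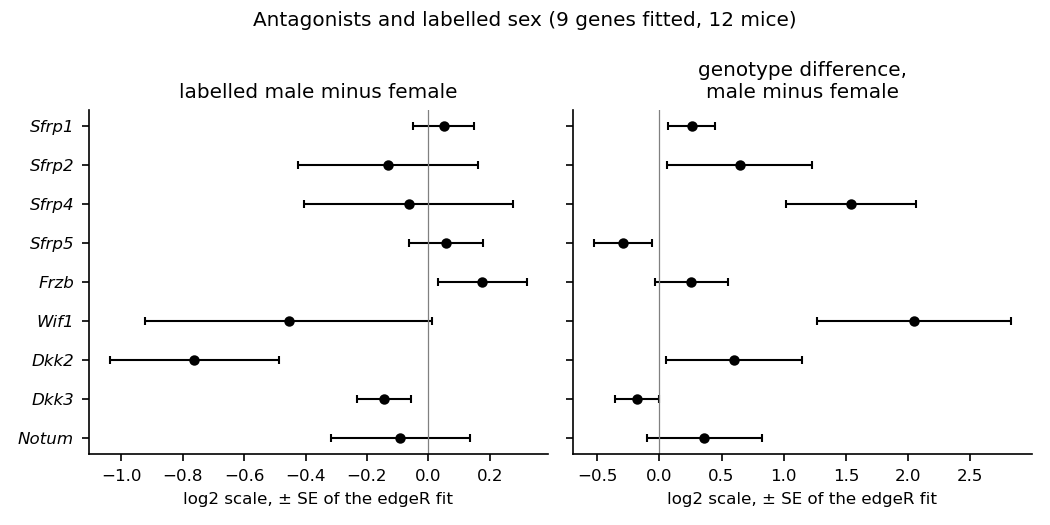
Log2 difference between labelled males and females (left) and the genotype difference in males minus that in females (right) for the 9 antagonists that were fitted, as points with bars of ± 1 SE from edgeR over 12 mice. Dkk2 lies farthest from 0 on the left, Sfrp4 and Wif1 on the right, and 0 of the 9 genes passed the adjusted threshold in either panel.

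The other genes of the pathway were taken from 7 lists made by role, with 82 genes of which 72 were tested. In the genotype comparison 4 of the 72 (5.56%) passed in edgeR, 3 higher and 1 lower in DKO DRG, where 0.940% of all genes tested did. The lists were chosen with earlier results of these data known, so no excess is read from this share. DESeq2 called 10, of which 5 were higher and 5 lower, so the balance of directions depended on the tool. Over all genes DESeq2 called 845, with 344 higher and 501 lower, where edgeR called 172, with 68 higher and 104 lower. At an unadjusted p under 0.05 edgeR gave 10 higher and 7 lower, where 14.9% of all genes tested passed. The median log2 fold change of the 72 was 0.045. Of 13 Wnt ligand genes tested, 2 rose and 0 fell, with a median of 0.17. Wnt5b was at 0.440 to 1.05 CPM in Nf2 and at 1.23 to 3.34 CPM in DKO mice. The log2 fold change was 1.42 ± 0.28 (SE, edgeR adjusted p of 0.0288). Wnt4 was at 2.03 to 4.00 CPM and at 4.51 to 11.3 CPM, a log2 fold change of 1.07 ± 0.22 (SE, edgeR adjusted p of 0.0411). Neither ligand overlapped between genotypes.

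Of 8 Wnt target genes tested, 1 rose and 0 fell, while 2 were higher and 1 was lower at an unadjusted p under 0.05. The median log2 fold change of the 8 was 0.042. The target past the threshold was Nkd1, which acts back on Dishevelled as a negative regulator. Nkd1 was at 6.02 to 8.87 CPM in Nf2 (median 7.54) and at 10.1 to 13.4 CPM in DKO mice (median 12.1). Its log2 fold change was 0.64 ± 0.11 (SE, edgeR adjusted p of 0.0138), and it passed in all 12 fits that each left out 1 mouse. Among 11 other Wnt inhibitors and Dickkopf co-receptors tested, 0 rose and 1 fell. At an unadjusted p under 0.05, which 14.9% of all genes tested reached, 1 was higher and 4 were lower. The summed CPM of the 14 listed genes had medians of 596 in Nf2 and 437 in DKO DRG, with overlapping ranges. The largest part was Sostdc1, at 362 ± 41.8 CPM (SD, n = 6) in Nf2 and 246 ± 57.6 CPM (SD, n = 6) in DKO DRG, which did not pass in edgeR. Igfbp4, an IGF-binding protein that also binds Frizzled and Lrp6, was at 97.9 to 133 CPM in Nf2 and at 80.7 to 105 CPM in DKO mice, so the genotypes overlapped. Its log2 fold change was -0.41 ± 0.09 (SE, edgeR adjusted p of 0.0472).

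Leaving out single mice ended the calls of Wnt5b, Wnt4 and Igfbp4. Wnt5b passed in 6 of 12 such fits, with adjusted p values of 0.0511 to 0.0683 without mouse 918, 1048, 885, 886, 914 or 915. Wnt4 passed in 3 of 12, those without mouse 649, 887 or 914, and the other 9 gave 0.0531 to 0.0930. Igfbp4 passed in 2 of 12, those without mouse 1048 or 885, and the other 10 gave 0.0612 to 0.109. The folds kept their direction, at 1.26 to 1.53 for Wnt5b, 0.87 to 1.16 for Wnt4 and -0.47 to -0.37 for Igfbp4.

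**Figure D5:**
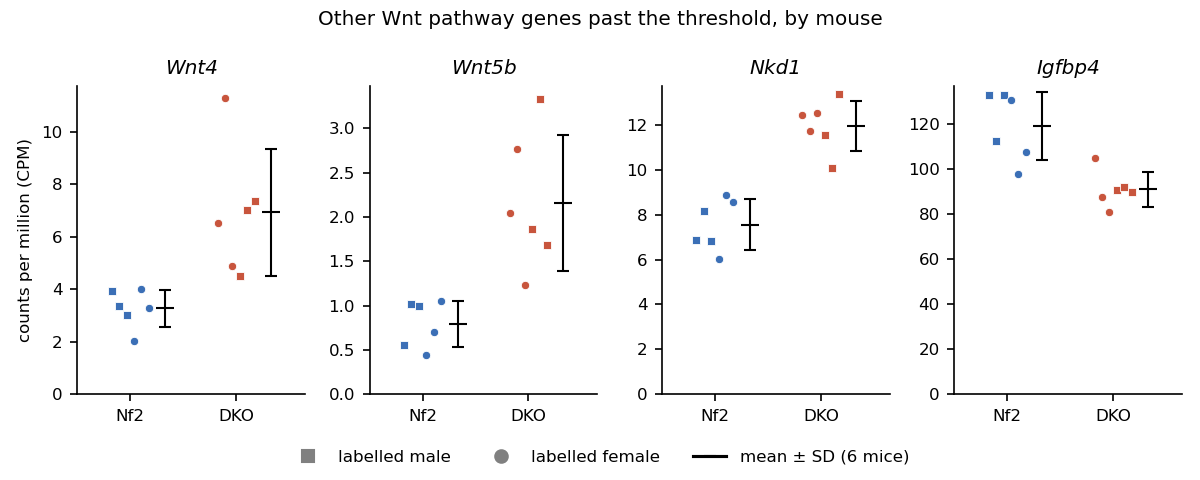
CPM of the 4 other Wnt pathway genes past the threshold in each mouse, with Nf2 in blue and DKO in red, squares for labelled males, circles for labelled females and bars for the mean ± SD of 6 mice. Wnt4, Wnt5b and Nkd1 do not overlap between genotypes, and Igfbp4 does.

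The remaining lists held no gene past the edgeR threshold. Of 16 Wnt receptor genes 0 passed, also at an unadjusted p under 0.05, and the smallest p values belonged to Fzd7 (log2 fold change -0.16 ± 0.08, SE) and the Wnt co-receptor Ryk (-0.17 ± 0.08). Of 2 secretion genes, Wls, the Wnt cargo receptor, had 0.21 ± 0.09 and the acyltransferase gene Porcn -0.043 ± 0.11. In the R-spondin axis 0 of 9 passed and 3 did so unadjusted, where 14.9% of all genes tested did. Among the 3 were the ubiquitin ligase gene Rnf43 (-0.73 ± 0.20) and the ligand gene Rspo3 (0.95 ± 0.29), which DESeq2 called with adjusted p values of 0.0182 and 0.0389. Of 13 intracellular genes 0 passed and 2 did so unadjusted, near the share of 14.9% over all genes tested. The 2 were Gsk3b (0.14 ± 0.06) and Apc (0.15 ± 0.07), both of the beta-catenin destruction complex.

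Markers of other tissues and cells were set beside these differences. Macrophage markers summed to 215 to 322 CPM in Nf2 (median 295) and to 177 to 238 CPM in DKO DRG (median 206). Of 10 macrophage markers tested 1, C1qb, fell and 0 rose, while 6 were lower and 1 was higher at an unadjusted p under 0.05. Skeletal muscle markers had medians of 618 and 84.2 CPM, with 0 of 10 past the threshold and 9 lower at an unadjusted p under 0.05, which 14.9% of all genes tested reached in either direction. Leptomeningeal markers had medians of 52.7 and 87.1 CPM, with 0 of 8 past the threshold and 7 higher unadjusted. The sums of all 14 marker lists overlapped between genotypes. Their part in the genotype differences of Sfrp5, Wnt4, Wnt5b, Nkd1 and Igfbp4 was not tested.

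Because Sfrp5 is known from fat, adipocyte markers were set beside it. They summed to 14.2 to 22.8 CPM in Nf2 and to 11.6 to 141 CPM in DKO DRG, with medians of 17.8 and 16.0 CPM. Of 6 adipocyte markers tested 0 passed the threshold, and 5 had a log2 fold change below 0 and 1 above. At an unadjusted p under 0.05, which 14.9% of all genes tested reached, 1 was higher and 1 lower. Plin4, a lipid droplet gene, reached 136 CPM in 1 mouse, whereas Adipoq, which encodes adiponectin, stayed between 0.267 and 1.31 CPM in all 12. Fabp4 averaged 5.82 CPM in Nf2 and 3.87 CPM in DKO DRG, a log2 fold change of -0.61 ± 0.25 (SE). Myelinating Schwann cell markers had medians of 8400 and 8143 CPM and sensory neuron markers 6724 and 7028 CPM, with 0 of 7 and 0 of 9 past the threshold, also unadjusted. The 6 genes listed as nonmyelinating Schwann cell markers were Sox10, Ncam1, Ngfr, Scn7a, Cdh2 and L1cam. Whether they are limited to these cells was not tested, and the authors use SOX10 as a marker of Schwann cells without that limit. Their sums had medians of 3826 CPM in Nf2 and 3504 CPM in DKO DRG, with 0 of 6 past the threshold. At an unadjusted p under 0.05, which 14.9% of all genes tested reached, 2 of the 6 were lower and 0 higher. Their median log2 fold change was -0.19.

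Covariation within genotypes was measured on log2(CPM + 0.5) after the mean of each genotype was subtracted, over 12 mice, with permutation tests of 100000 draws. Of 36 pairs of members 0 passed after adjustment and 2 did so unadjusted by Pearson's r, with 0 and 2 by Spearman's rho. The 2 Dickkopf genes Dkk2 and Dkk3 had r = 0.720 (permutation p = 0.00336, adjusted 0.121) and rho = 0.713 (permutation p = 0.00811, adjusted 0.239), with r = 0.714 after the 2 farthest mice were left out. Here and below, the 2 farthest mice are those farthest from the median of the second gene or list named. They were picked before genotype means were subtracted, so they need not be the extremes of the correlation itself. Wif1 and Notum had r = 0.735 (permutation p = 0.0106, adjusted 0.192) and rho = 0.727 (permutation p = 0.0133, adjusted 0.239), and r = 0.626 without the 2 farthest mice.

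Of 135 pairs of a member with a marker list or the Wnt targets, 0 passed after adjustment and 12 did so unadjusted, with 0 and 10 by Spearman's rho. Dkk3 and leptomeningeal markers had the smallest Pearson p, with r = 0.886 (permutation p = 0.00091, adjusted 0.123) and rho = 0.853 (permutation p = 0.00644, adjusted 0.435), and r = 0.710 without the 2 farthest mice. Sfrp2 and the Wnt target genes had the smallest Spearman p, with rho = 0.762 (permutation p = 0.00182, adjusted 0.246) and r = 0.753 (permutation p = 0.00214, adjusted 0.144), and r = 0.654 without the 2 farthest mice. Sfrp4 and fibroblast markers had r = 0.803 (permutation p = 0.0038, adjusted 0.166) and rho = 0.685 (permutation p = 0.0252, adjusted 0.493), which rested partly on 2 mice, since r was 0.438 without them. For Sfrp5 the smallest Pearson p was with macrophage markers, at r = 0.572 (permutation p = 0.057, adjusted 0.487) and rho = 0.503 (permutation p = 0.111, adjusted 0.543), with r = 0.481 without the 2 farthest mice. Its r with the Wnt target genes was 0.554 (permutation p = 0.0807, adjusted 0.489) and rho was 0.594 (permutation p = 0.0621, adjusted 0.493), with r = 0.445 without the 2 farthest. The smallest Spearman p for Sfrp5 was with fibroblast markers, at rho = 0.594 (permutation p = 0.057, adjusted 0.493), where r was 0.453 (permutation p = 0.163, adjusted 0.552) and 0.718 without the 2 farthest mice.

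The genes whose levels followed Sfrp5 most closely within genotypes, among 18294 others, were Gins3 (r = 0.902 over 12 mice), Cysltr1 (r = 0.895) and Slc18b1 (r = 0.867). For the other members the closest genes were Serpinb1-ps1 for Sfrp1 (r = 0.933), Pcdhb17 for Sfrp2 (0.865), Ncapg for Sfrp4 (0.961), Gfra2 for Frzb (0.877) and Scube1 for Wif1 (0.878). For Dkk2 it was B430218F22Rik (0.929), for Dkk3 Atp11b (0.948) and for Notum Stam (0.925). These are the highest of many values over 12 mice from shared libraries and are listed as a description. Of the 3 genes nearest Sfrp5, Gins3 had a log2 fold change of 0.043 ± 0.090 (SE) between genotypes and Cysltr1 one of -0.75 ± 0.23 (SE).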

How the data were processed

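RNA of 12 DRG samples was sequenced after poly(A) selection. Per the submitters' processing notes the authors used Trimmomatic 0.36, STAR 2.5.2b and featureCounts of Subread 1.5.2 on GRCm38; the annotation release, strand setting and treatment of multimapping reads are not given in the sources used here. The authors deposited raw counts per gene, which were not normalized. Replicates are separate mice. From these counts, CPM were computed on library totals, and levels per length with GENCODE M21 exons, which held 99.5% of the gene IDs. Genes were filtered with filterByExpr and tested with edgeR 4.0.16 (TMM factors, quasi-likelihood test, Benjamini-Hochberg adjusted p under 0.05); SE is the log2 fold change over the root of F. DESeq2 1.42.0, other scalings and filters, a sex covariate and fits leaving out mice were alternatives. Scripts were tested on simulated data. The members and lists were chosen with earlier results of these data known. Genes named were all members, the pathway genes past the threshold or otherwise up to 2 with the smallest p per list, up to 3 of the highest markers per list, and the genes most like each member. Adipoq, C1qb and Sostdc1 were named after their values were seen. Precision is limited by 21129191 to 41250329 counts per library.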

Additional observations from a re-analysis of the deposited data

Results flagged for a closer look

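In each genotype, the highest and lowest mouse were compared with the others for the 10 antagonists, their summed level, the Sfrp5 share and the 12 pathway genes named by rule, which made 48 groups of 6 mice. A sample stood apart in 2 of these groups, and chance alone gives about 1 in 20, or 2.4 here. Dkk1 in DKO mouse 917 was at 0.173 CPM against 0.0485 CPM in the next DKO mouse, and this value rests on 4 counts. Apc in DKO mouse 887 was at 282 CPM against 328 CPM in the next DKO mouse, and mouse 887 also had the highest mitochondrial share, 5.60%.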

How the results depend on the processing

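No paired analysis was possible because the mouse numbers differ between the groups and so pair no samples. Without 1 mouse, the genes called between genotypes, 172 with all mice, ranged from 81 (without mouse 918) to 217 (without mouse 887), those between labelled sexes from 0 to 10 (without mouse 702), those for the interaction from 2 to 6 and the Wnt pathway genes from 1 to 4. DESeq2 called 845 genes between genotypes, 5 between sexes, 20 for the interaction and 10 Wnt pathway genes, 5 in each direction. Without a filter beyond 1 read, 5 and 6 genes were called for sex and interaction, and with at least 1 CPM in 6 mice 0 were called for sex. Without mice 702 and 887 together, chosen after seeing the data, 9 genes were called for sex, 2 Wnt pathway genes were called between genotypes, and the male minus female differences of Sfrp1 and Sfrp2 changed sign to -0.054 and 0.042. With labelled sex as a covariate 2 Wnt pathway genes were called, and Wnt4 (adjusted p 0.0576) and Igfbp4 (0.0600) were not. Leaving out 1 mouse reversed small values, with ranges over the 12 fits of -0.021 to 0.11 for Sfrp1, -0.30 to 0.050 for Sfrp2, -0.26 to 0.21 for Sfrp4 and -0.18 to 0.043 for Notum between the sexes, and -0.10 to 0.049 for Porcn, -0.0086 to 0.20 for Frzb, -0.35 to 0.028 for Dkk2 and -0.094 to 0.0085 for Dkk3 between genotypes. On the log2(CPM + 4) scale the low-level Sfrp2, Wif1, Notum and Dkk2 shrank to -0.076, 0.087, 0.084 and -0.022, as that added constant exceeds their level, and Sfrp4 to -0.40. The cause was not tested for the other changes. Pairs called for correlation stayed at 0 in every alternative run.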
